A study of Mus musculus with 17 samples.

Results

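The early growth response family comprises 4 genes, Egr1, Egr2, Egr3 and Egr4, and the NGFI-A binding proteins Nab1 and Nab2 are its corepressors. These 6 genes were chosen by name, as the full family together with its dedicated corepressors, out of 55471 genes in the deposited count table, and all 6 had counts in each of the 17 libraries. Each library held total RNA from the hippocampus of 1 male mouse aged 3 to 6 months, of strain C57BL/6 in the labels and C57BL/6J in the study's methods.

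Egr proteins are zinc finger transcription factors that bind GC-rich sites. Their genes are immediate early genes: in neurons, synaptic activity switches them on within minutes through calcium and ERK signalling, which act on serum response factor (SRF) with its ternary complex partners and on CREB, factors that recruit the lysine acetyltransferase CBP. Egr1 is used widely as a mark of recently active hippocampal neurons, Egr2 is also the master regulator of Schwann cell myelination, Egr3 takes part in long-lasting forms of plasticity and memory, and Egr4 is the member most restricted to the nervous system. Nab1 and Nab2 bind Egr1, Egr2 and Egr3 and repress transcription at their target genes, in part through the NuRD complex; Egr4 lacks the domain that Nab proteins bind, and Nab2 is itself an Egr target in several cell types.

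The mice were of 2 genotypes and 3 treatments. CBP-ifKO mice carry floxed Crebbp alleles and a tamoxifen-regulated Cre recombinase under the Camk2a promoter (creERT2), so that after tamoxifen a truncated CBP without acetyltransferase activity is made in forebrain excitatory neurons, whereas interneurons, glia and the other hippocampal cells keep intact CBP. Control mice were littermates that also received tamoxifen. The study's methods describe them as negative for the Cre transgene although their library labels carry the name Camk2a_creERT2, and Esr1, whose sequence is part of creERT2, ran from 41.0 to 77.8 normalized counts in Control and from 703 to 941 in CBP-ifKO libraries. The treatment groups differed in kindling, the repeated injection of pentylenetetrazol (PTZ), a blocker of GABA-A receptors, and in the last injection. Sal stands for saline without kindling, PTZ0 for kindling with saline as the last injection, and PTZ45 for kindling with a last dose of 45 mg/kg PTZ; PTZ0 and PTZ45 hippocampi were taken 45 min after that injection. There were 2 Control PTZ45 libraries and 3 in each of the other groups.

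Library totals ran from 5831992 to 18735643 counts, the shallowest and the deepest both being CBP-ifKO Sal libraries. Crebbp averaged 2169 ± 201 (SD, n = 8) normalized counts in Control and 1214 ± 95 (SD, n = 9) in CBP-ifKO libraries, without overlap. Transcripts of the choroid plexus, an epithelium attached to the hippocampus, differed most: the sum of 5 markers was 434.8 to 1136 in 12 libraries and 10750 to 44030 in the other 5 (Control Sal 2, Control PTZ0 2, CBP-ifKO Sal 1, CBP-ifKO PTZ0 3 and CBP-ifKO PTZ45 2). The sequencing lane was shared by Control Sal with Control PTZ0, by Control PTZ45 with CBP-ifKO Sal, and by CBP-ifKO PTZ0 with CBP-ifKO PTZ45, so that for every other pair of groups lane and group cannot be told apart. Since the tissue was taken whole, fewer cells of a type and less RNA per cell cannot be told apart either.

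Promoter stretches were read from RefSeq models on GRCm38.p6 for the 4 genes that matched, Egr2, Egr4, Nab1 and Nab2, because these are the sequences on which SRF, CREB and the Egr proteins themselves can act. The 250 bases before each annotated start site were searched on both strands for 3 motifs. These were the CArG box (the SRF motif), the CRE core TGACG (part of the CREB motif) and the Egr motif GCGNGGGCG. Among 32851 promoters of this length, 1.47% held a CArG box, 17.8% a CRE core and 4.70% an Egr motif. Egr2 (Ensembl gene ENSMUSG00000037868, chr10:67535475-67542188, plus strand) has several annotated starts. The window of the first, at 67535499, held none of the 3 motifs, and those of the later starts lie inside the gene span. A CArG box stood at -72 to -63 from the start at 67537566, in capitals here, within chr10:67537316-67537565:
Egr2 start at 67537566: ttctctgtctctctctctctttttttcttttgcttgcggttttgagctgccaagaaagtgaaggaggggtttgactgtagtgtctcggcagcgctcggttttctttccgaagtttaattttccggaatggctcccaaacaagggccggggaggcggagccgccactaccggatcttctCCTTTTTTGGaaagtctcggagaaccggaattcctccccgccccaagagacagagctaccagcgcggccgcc

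A second CArG box of Egr2 lay just before the start at 67537869, followed by a CRE core on the minus strand, both in capitals within chr10:67537791-67537820:
Egr2 start at 67537869: ctcagtCCATATATGGgcagcgaCGTCAcg

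Egr4 (ENSMUSG00000071341, chr6:85511121-85513589, minus strand) had 2 CRE cores on the opposite strand and no CArG letters in chr6:85513590-85513839, shown in the direction of transcription with the CRE cores in capitals:
Egr4: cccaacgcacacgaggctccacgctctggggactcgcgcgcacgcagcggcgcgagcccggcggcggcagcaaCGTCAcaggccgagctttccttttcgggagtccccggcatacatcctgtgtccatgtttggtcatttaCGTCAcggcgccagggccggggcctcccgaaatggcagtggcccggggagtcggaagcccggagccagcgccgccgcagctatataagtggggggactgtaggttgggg

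Nab1 (ENSMUSG00000002881, chr1:52457294-52500679, minus strand) held Egr motifs at 3 places, the first of them beside a CRE core, both in capitals in this stretch of chr1:52500564-52500593, again in the direction of transcription; the stretch lies before the RefSeq start at 52500448 but inside 1 exon of the longer GENCODE model:
Nab1: cggcCGCCCACGCcgggatctgCGTCActc

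The window of Nab2 (ENSMUSG00000025402, chr10:127660918-127668568, minus strand) held none of the 3 motifs; its RefSeq start at 127666703 and the bases before it lie inside the span of the GENCODE gene. A match describes letters only, and no binding was measured in these libraries. The other members are Egr1 (ENSMUSG00000038418, chr18:34859823-34864984, plus strand) and Egr3 (ENSMUSG00000033730, chr14:70077203-70082614, plus strand). Exons of Nab2 overlap those of Stat6, Nemp1 and the antisense gene Gm16229 on the other strand by 40, 151 and 1050 bases, and because strand use in counting is not given in the sources used here, reads there cannot be assigned to one gene; no exon of the other 5 members overlaps another gene.

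The first question was how the family answers a PTZ injection in kindled mice with intact CBP. In Control mice all 4 Egr genes rose 45 min after PTZ and neither Nab gene was called. Egr2 rose most in proportion, by 34.6-fold against Sal, followed by Egr4 (9.27-fold), Egr1 (5.51-fold) and Egr3 (3.75-fold). Of the 6 members 4 were called higher (DESeq2's Wald test with Benjamini-Hochberg adjustment, called under 0.05, as throughout), where 0.939% of all genes tested were. Because 1 library is 1 mouse, these p-values rest on the spread between mice within a group. Control PTZ45 has 2 libraries, in another lane than Control Sal and PTZ0, and no difference between lanes enters that spread.

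Egr1 gave 218.9, 294.3 and 390.5 normalized counts in the Control Sal libraries, 271.2, 253.0 and 299.0 in Control PTZ0, and 1854 and 1474 in Control PTZ45. Both stimulated libraries stood above all 6 unstimulated Control libraries by a wide margin. On the log2 scale the change was 2.46 (SE 0.33, adjusted p = 1.39e-11) against Sal and 2.6 (SE 0.12, adjusted p = 8.36e-102) against PTZ0.

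Egr2 was nearly silent before stimulation. It gave 7.01, 12.3 and 14.5 normalized counts in Control Sal and 12.3, 10.5 and 19.04 in Control PTZ0, which stand for 9 to 20 reads a library, and 426.3 and 334.6 in Control PTZ45. The groups were far apart, with log2 fold changes of 5.11 (SE 0.31, adjusted p = 6.91e-58) and 4.75 (SE 0.29, adjusted p = 2.01e-58).

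Egr3 started from the highest level of the family. Its values were 376.3, 459.3 and 483.7 in Control Sal, 428.4, 461.5 and 449.4 in Control PTZ0, and 1740 and 1554 in Control PTZ45. Its spread within groups was small beside the rise, which came to 1.91 (SE 0.12, adjusted p = 1.65e-52) against Sal and 1.88 (SE 0.10, adjusted p = 3.12e-80) against PTZ0 on the log2 scale.

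Egr4 gave 21.8, 28.3 and 33.5 normalized counts in Control Sal, 21.95, 25.8 and 24.8 in Control PTZ0, and 279.5 and 233.6 in Control PTZ45. The stimulated libraries again did not overlap with any other Control library. It rose by 3.21 (SE 0.26, adjusted p = 8.80e-33) against Sal and 3.42 (SE 0.26, adjusted p = 2.33e-36) against PTZ0 on the log2 scale. In the comparison with PTZ0, too, 4 of 6 members were called higher, against 1.18% of all genes tested. The comparisons with Sal and with PTZ0 share the 2 Control PTZ45 libraries and are not independent of each other.

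Neither corepressor was called. Nab1 gave 622.6, 535.6 and 562.3 in Control Sal, 594.3, 577.4 and 562.7 in Control PTZ0, and 599.6 and 734.5 in Control PTZ45. The PTZ45 libraries lay above all PTZ0 libraries but overlapped with Sal, and the log2 fold changes of 0.21 (95% interval -0.04 to 0.46, adjusted p = 0.785) and 0.20 (95% interval -0.02 to 0.42, adjusted p = 0.693) were not called. By edgeR the unadjusted p of Nab1 was 0.0444 and 0.0196 (adjusted p = 0.464 and 0.285). The Nab1 values turned on the 2 stimulated libraries: without Control PTZ45 replicate 1 they were 0.35 (unadjusted p = 0.0316, adjusted p = 0.493) and 0.34 (unadjusted p = 0.0123, adjusted p = 0.11), and without replicate 2 they were 0.06 and 0.05 (adjusted p = 1 in both). Nab2 gave 161.3, 190.8 and 174.5, then 168.5, 162.8 and 133.3, then 161.0 and 148.8 in the same groups. Its PTZ45 libraries sat just under the Sal libraries and inside the PTZ0 range, with log2 fold changes of -0.18 (95% interval -0.55 to 0.19) and 0.00.

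**Figure D1:**
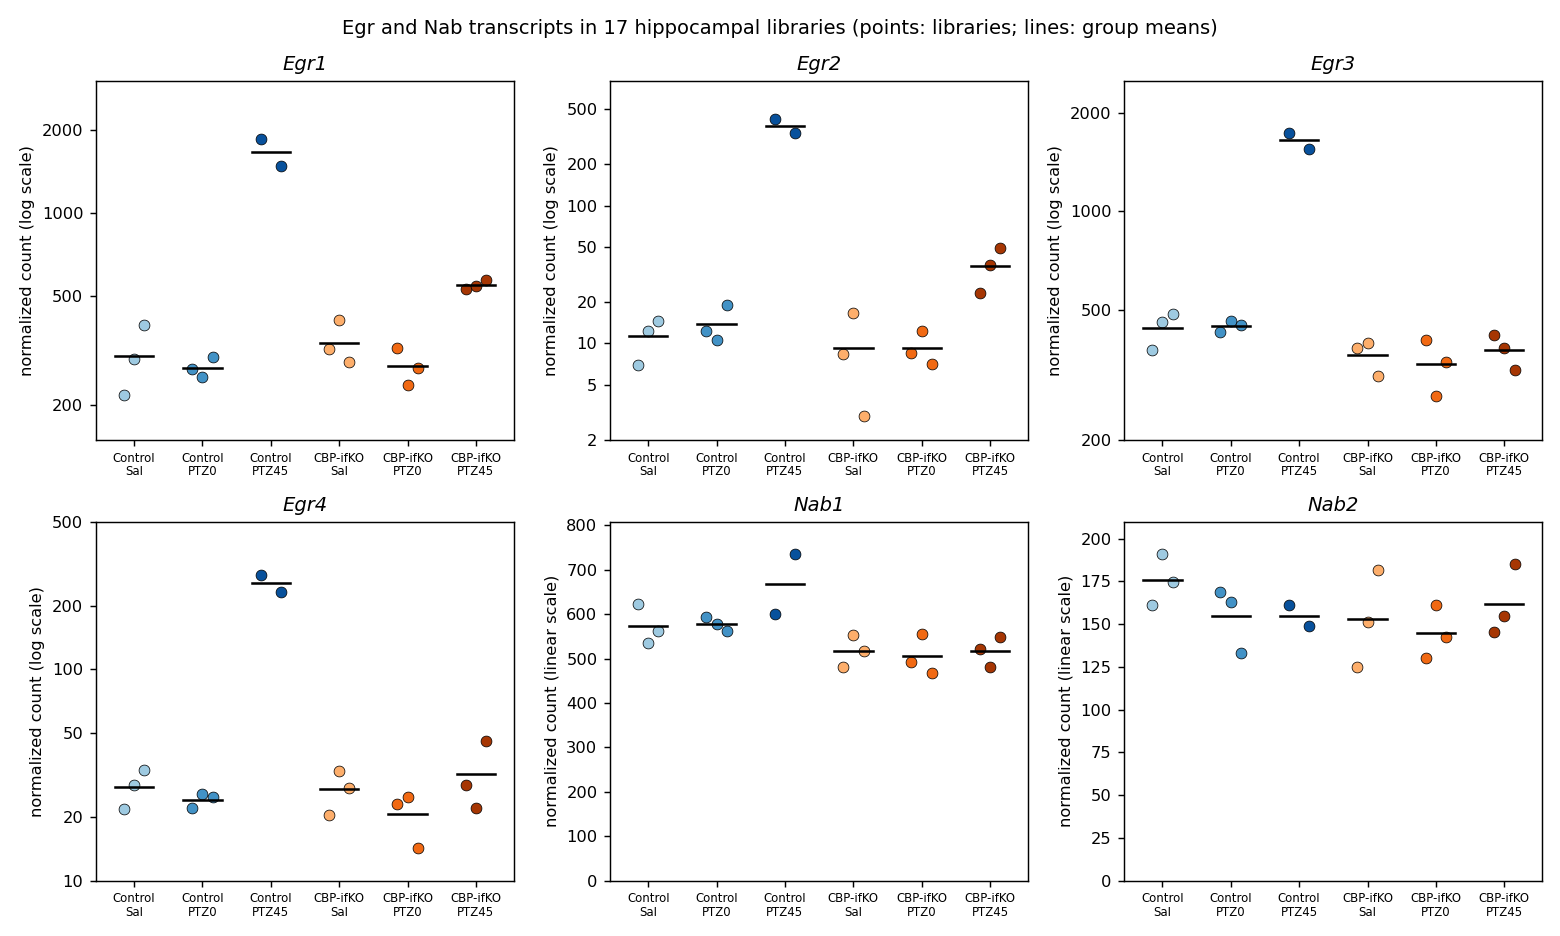
Normalized counts of the 6 genes in the 17 libraries; each point is 1 library, each line a group mean, with logarithmic axes that differ between the Egr panels and linear axes from 0 for Nab1 and Nab2. The 2 Control PTZ45 libraries stand apart for every Egr gene, CBP-ifKO PTZ45 libraries stand above the unstimulated ones for Egr1 and Egr2, and the Nab panels stay within 468 to 735 and 125 to 191.

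The second question was what remains of this response when excitatory neurons lack functional CBP. The study reported that no CBP-ifKO mouse reached the progressive seizure stage during kindling, whereas all control mice came to have seizures. The genotypes given PTZ thus differed in seizures too, and the part of seizures in the Egr differences was not tested. In CBP-ifKO mice Egr1 and Egr2 still rose after PTZ, each by less than in Control mice, whereas Egr3 and Egr4 were not called. Against Sal, 2 of 6 members were called higher and 0.0860% of all genes tested; against PTZ0, where the libraries shared a lane, 2 of 6 members and 0.0607% of all genes tested.

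Egr1 was 320.9, 406.7 and 286.7 normalized counts in CBP-ifKO Sal, 322.6, 236.8 and 274.4 in CBP-ifKO PTZ0, and 526.8, 539.8 and 570.7 in CBP-ifKO PTZ45. The 3 stimulated libraries lay close together, above all 12 unstimulated libraries of both genotypes and below both Control PTZ45 libraries. On the log2 scale this was a rise of 0.71 (SE 0.13, adjusted p = 0.000181) against Sal, or 1.64-fold, and 0.98 (SE 0.13, adjusted p = 7.55e-11) against PTZ0, or 1.97-fold. Without the libraries rich in choroid plexus RNA the change against Sal was 0.69, of about the same size, with an adjusted p of 0.136 by DESeq2 on 2 libraries a group; over the other alternatives the call held.

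Egr2 was 8.33, 16.6 and 2.96 in CBP-ifKO Sal, 8.52, 12.4 and 7.10 in CBP-ifKO PTZ0, and 23.1, 37.0 and 49.5 in CBP-ifKO PTZ45. Every stimulated library exceeded every unstimulated one, but the unstimulated values rest on 4 to 13 reads. The rise was 2.17 (SE 0.54, adjusted p = 0.0239) against Sal and 1.97 (SE 0.48, adjusted p = 0.0488) against PTZ0 on the log2 scale.

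The Egr2 calls in CBP-ifKO mice did not hold under many alternatives. Against Sal the adjusted p was 0.108 without CBP-ifKO Sal replicate 1, 0.363 without CBP-ifKO Sal replicate 3 and 0.108 without CBP-ifKO PTZ45 replicate 1, with log2 fold changes of 2.18, 1.68 and 2.40, and without CBP-ifKO PTZ45 replicate 2 or 3 DESeq2 gave no adjusted p (2.13 and 1.86). With TMM size factors or a replicate block DESeq2 gave no adjusted p either (2.155 and 2.137). Over all alternatives with an adjusted p, this p ran from 3.44e-07 to 0.84. Against PTZ0 leaving out any one library except CBP-ifKO PTZ45 replicate 1 brought the adjusted p to between 0.113 and 1, with log2 fold changes of 1.69 to 2.24. With a replicate block the call against PTZ0 was lost as well (1.95). Without the libraries rich in choroid plexus RNA the changes were 2.12 (adjusted p = 0.762) against Sal and 1.78 (adjusted p = 1) against PTZ0.

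Egr3 showed no detectable rise in CBP-ifKO mice. Its values were 383.1, 396.3 and 314.1 in Sal, 403.0, 272.1 and 345.4 in PTZ0, and 417.4, 380.9 and 327.8 in PTZ45, so that the 3 groups overlapped. The 95% interval of the log2 fold change ran from -0.23 to 0.33 against Sal and from -0.14 to 0.44 against PTZ0, below the Control estimates of 1.91 and 1.88. Egr4 gave 20.5, 33.2 and 27.3, then 23.1, 24.8 and 14.2, then 28.4, 21.99 and 46.0. A single CBP-ifKO PTZ45 library, replicate 3, exceeded the unstimulated range, and the intervals of -0.52 to 1.08 and -0.19 to 1.47 leave room for a rise of up to 2.11-fold or 2.77-fold in these fits, beside the 9.27-fold and 10.7-fold seen in Control mice. With a GC correction the Egr4 values were larger, 0.71 against Sal and 0.93 against PTZ0 (adjusted p = 1 in both), and against PTZ0 the unadjusted p was 0.024 there and 0.0301 by edgeR (0.63, adjusted p = 0.876).

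Neither corepressor was called in CBP-ifKO mice either. Nab1 gave 479.8, 552.0 and 515.8 in Sal, 491.9, 555.6 and 467.6 in PTZ0, and 520.5, 480.8 and 549.4 in PTZ45. Nab2 gave 124.9, 151.5 and 181.8, then 130.3, 161.3 and 142.7, then 145.1, 154.9 and 185.1. The groups overlapped for both genes, and the log2 fold changes lay between 0.01 and 0.15 with adjusted p = 1 in each test.

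**Figure D2:**
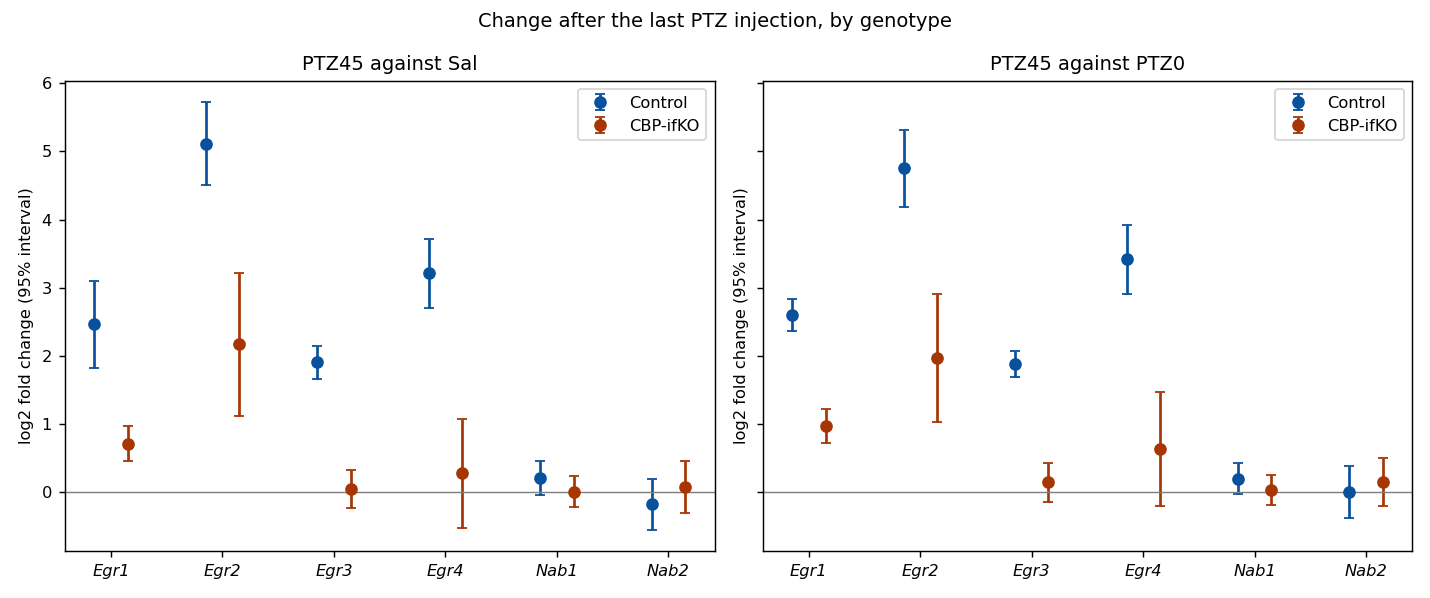
Log2 fold change of each gene after the last PTZ injection against Sal and against PTZ0, with 95% intervals, in Control (blue) and CBP-ifKO (brown) mice. For all 4 Egr genes the CBP-ifKO interval lies wholly below the Control interval in both panels, and the Nab intervals all cross 0.

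The difference between the genotypes' responses was tested as an interaction. All 4 Egr genes had a smaller response in CBP-ifKO mice against either reference: 4 of 6 members were called lower over Sal, where 0.329% of all genes tested were, and 4 of 6 over PTZ0, where 0.423% were. Over PTZ0 the interaction was -2.79 (SE 0.48, adjusted p = 5.37e-06) for Egr2, -2.77 (SE 0.43, adjusted p = 1.11e-07) for Egr4, -1.73 (SE 0.18, adjusted p = 9.11e-20) for Egr3 and -1.62 (SE 0.17, adjusted p = 1.26e-17) for Egr1 on the log2 scale. Over Sal it was -2.92 (adjusted p = 0.0396), -2.91 (adjusted p = 8.52e-09), -1.85 (adjusted p = 2.00e-20) and -1.77 (adjusted p = 6.16e-05) in the same order. The Egr2 interaction over Sal lost its call when a library was left out that was either Control Sal replicate 2 or 3 (adjusted p = 0.195 and 0.0608), the first CBP-ifKO Sal replicate (0.291) or the second CBP-ifKO PTZ45 replicate (0.210), with values of -2.93 to -3.18. With a block for the replicate number it lost its call as well (-3.10, adjusted p = 0.298 by DESeq2). Without the libraries rich in choroid plexus RNA the interactions over Sal for Egr1 and Egr2 were -1.78 (adjusted p = 0.134) and -3.08 (adjusted p = 1), and no interaction over PTZ0 lost its call under any alternative. Neither Nab gene had an interaction that was called, with values of -0.20 and 0.25 over Sal and -0.17 and 0.15 over PTZ0.

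Expressed as the share of the Control gain in normalized counts over PTZ0 that was reached in CBP-ifKO mice, Egr1 kept 19.3 ± 3.32% (SE), Egr2 7.42 ± 2.32%, Egr4 4.91 ± 3.43% and Egr3 2.93 ± 3.84%. Over Sal the shares were 15.2 ± 3.55%, 7.38 ± 2.50%, 2.23 ± 3.53% and 0.900 ± 3.02%. The kept shares of Egr3 and Egr4 were within 2 SE of 0 against both references, and those of Egr1 and Egr2 were not.

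After PTZ the genotypes therefore differed for the whole Egr family. The log2 fold change of CBP-ifKO PTZ45 against Control PTZ45 libraries was -3.39 for Egr2 (SE 0.25, adjusted p = 6.82e-38), -3.01 for Egr4 (SE 0.28, adjusted p = 2.21e-24), -2.13 for Egr3 (SE 0.12, adjusted p = 1.36e-63) and -1.61 for Egr1 (SE 0.12, adjusted p = 2.94e-37). The CBP-ifKO mean stood at 9.61%, 12.5%, 22.8% and 32.8% of the Control mean for Egr2, Egr4, Egr3 and Egr1. Of the 6 members 4 were called lower, and 2.82% of all genes tested. Nab1 was also lower in each CBP-ifKO PTZ45 library (480.8 to 549.4) than in either Control PTZ45 library (599.6 and 734.5), at -0.36 (SE 0.13, adjusted p = 0.128), a difference called only by edgeR's quasi-likelihood test (adjusted p = 0.019) and by DESeq2 fitted to all 17 libraries (adjusted p = 0.0277) among alternatives that ran from 0.019 to 1. Nab2 differed by 0.06 (adjusted p = 0.978). In this comparison 2 of 8 excitatory neuron markers were lower and no marker of astrocytes, oligodendrocytes, microglia, endothelial cells or interneurons was called, 6 markers a list.

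No member of the family was called between kindled mice that received saline last and mice that were never kindled. Between PTZ0 and Sal none of the 6 passed in either genotype by DESeq2, whose unadjusted p was under 0.05 for none, or by edgeR, whose unadjusted p was 0.0261 for Egr1 in CBP-ifKO mice (-0.27); 0.00843% of all genes tested were called in Control and 0.0112% in CBP-ifKO mice. The log2 differences of Egr genes ran from -0.20 (Egr4) to 0.33 (Egr2) in Control mice and from -0.36 (Egr4) to 0.14 (Egr2) in CBP-ifKO mice, and those of Nab genes from -0.18 to 0.01 over both genotypes. The groups overlapped for every member.

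Between genotypes, unstimulated Egr3 and Nab1 were lower in CBP-ifKO mice by a modest amount. Egr1 and Egr4 were not called where DESeq2 gave an adjusted p, and Egr2, at so few reads, received none: its differences were -0.42 (95% interval -1.76 to 0.92) in Sal, -0.59 (-1.73 to 0.55) in PTZ0 and -0.54 (-1.28 to 0.20) over both, and edgeR gave adjusted p of 0.749, 0.574 and 0.293. In Sal mice none of the 5 members with an adjusted p was called by DESeq2, nor any by edgeR, against 2.04% of all genes tested in either direction, and 1 member, Egr3, had an unadjusted p under 0.05, at -0.28 (adjusted p = 0.425). In PTZ0 mice Egr3 was lower at -0.40 (SE 0.13, adjusted p = 0.0346), 1 of the 4 members tested (Egr2 and Egr4 had no adjusted p), where 5.25% of all genes tested were lower. The 3 Control PTZ0 libraries (428.4 to 461.5) lay above the 3 CBP-ifKO PTZ0 libraries (272.1 to 403.0). The PTZ0 call for Egr3 was lost when any one library was left out except CBP-ifKO PTZ0 replicate 1, with adjusted p of 0.157 to 0.263 and values of -0.26 to -0.43, and without the libraries rich in choroid plexus RNA (-0.38, adjusted p = 0.73).

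Over Sal and PTZ0 together, with 6 libraries a genotype, Egr3 ran from 376.3 to 483.7 with a median of 454.3 in Control and from 272.1 to 403.0 with a median of 364.2 in CBP-ifKO mice. The ranges overlapped slightly, and the log2 difference was -0.34 (SE 0.09, adjusted p = 0.00482), or 0.791-fold. Nab1 ran from 535.6 to 622.6 with a median of 570.1 in Control and from 467.6 to 555.6 with a median of 503.8 in CBP-ifKO mice, at -0.18 (SE 0.06, adjusted p = 0.0281), or 0.880-fold. The call for Nab1 was lost in 10 of 20 alternatives, 6 of them with a single library left out (Control Sal 1, CBP-ifKO Sal 1, Control PTZ0 1, Control PTZ0 2, CBP-ifKO PTZ0 1 or CBP-ifKO PTZ0 3; adjusted p 0.0566 to 0.101), with values of -0.15 to -0.19 in all 10. Without the libraries rich in choroid plexus RNA neither call held, at -0.34 (adjusted p = 0.0836) for Egr3 and -0.15 (adjusted p = 0.393) for Nab1.

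These 2 of 5 members tested compare with 9.04% of all genes tested that were lower over Sal and PTZ0. Markers of cell types that keep CBP moved with genotype in the same libraries: 4 of 6 oligodendrocyte markers, 2 of 6 astrocyte markers, 2 of 6 interneuron markers and 1 of 6 endothelial markers were lower, 0 of 6 microglial markers were called, and of 8 excitatory neuron markers 2 were higher and 3 lower. The summed interneuron markers ran from 6438 to 6628 in unstimulated Control and from 5752 to 6484 in unstimulated CBP-ifKO libraries, and the summed astrocyte markers from 21050 to 21890 and from 17270 to 20080. Of these lists, the sums of all but the astrocyte markers overlapped between genotypes: oligodendrocyte markers ran from 35410 to 37810 in Control and from 28270 to 39180 in CBP-ifKO libraries, endothelial markers from 2915 to 3164 and from 2484 to 3139, microglial markers from 2340 to 2542 and from 1895 to 2606, and excitatory neuron markers from 31540 to 40770 and from 36930 to 46470. No defining marker of any of these lists was at 0 in a library. The part of these differences in the lower Egr3 and Nab1 levels was not tested.

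Levels were compared between genes per kilobase of exon, with the union of exons as the length. The order of genes at close levels, such as Egr4 and Egr2 in Control PTZ45, depends on the length used. In Control Sal mice the order was Nab1 with a mean of 139.9 normalized counts per kb, Egr3 with 99.8, Egr1 with 67.2, Nab2 with 59.7, Egr4 with 12.97 and Egr2 with 3.31, where the libraries of Egr1 overlapped with those of both Egr3 and Nab2. After PTZ in Control mice Egr3 (373.7) and Egr1 (371.1) led, ahead of Nab1 (162.7), Egr4 (119.4), Egr2 (112.0) and Nab2 (52.7). In CBP-ifKO PTZ45 mice Nab1 (126.1) and Egr1 (121.7) led, with Egr3 at 85.2, Nab2 at 55.0, Egr4 at 15.0 and Egr2 at 10.8. The leading pair and the pair of Egr4 and Egr2 overlapped between libraries in both PTZ45 groups.

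The summed Egr level was 183.3 ± 35.2 (SD, n = 3) normalized counts per kb in Control Sal, 177.9 ± 7.27 in Control PTZ0 and 976.2 in Control PTZ45, whose libraries gave 1064 and 888.7. In CBP-ifKO mice it was 173.4 ± 26.2 in Sal, 151.6 ± 23.6 in PTZ0 and 232.6 ± 4.86 in PTZ45, each n = 3. The 3 CBP-ifKO PTZ45 libraries (232.2, 227.9 and 237.6) lay just above the range of all unstimulated libraries, 129.8 to 216.7.

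The make-up of the family also differed. Egr3 held 54.9% of the Egr sum in Control Sal and 57.0% in Control PTZ0 and 38.4% in Control PTZ45, while Egr2 held 1.77%, 2.29% and 11.4% and Egr4 7.06%, 6.32% and 12.2% in the same groups. Egr1 held 36.2%, 34.4% and 37.9%, so that its share in Control mice was about the same before and after PTZ. In CBP-ifKO PTZ45 mice Egr1 alone held 52.3% (50.6% to 53.6% over the 3 libraries), Egr3 36.7%, Egr4 6.40% and Egr2 4.61%. Already without PTZ the Egr1 share ran higher in CBP-ifKO (40.7% to 45.1%) than in Control libraries (32.0% to 40.2%), the ranges just failing to overlap. These shares are descriptions without a test, and they depend on the exon length used.

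**Figure D3:**
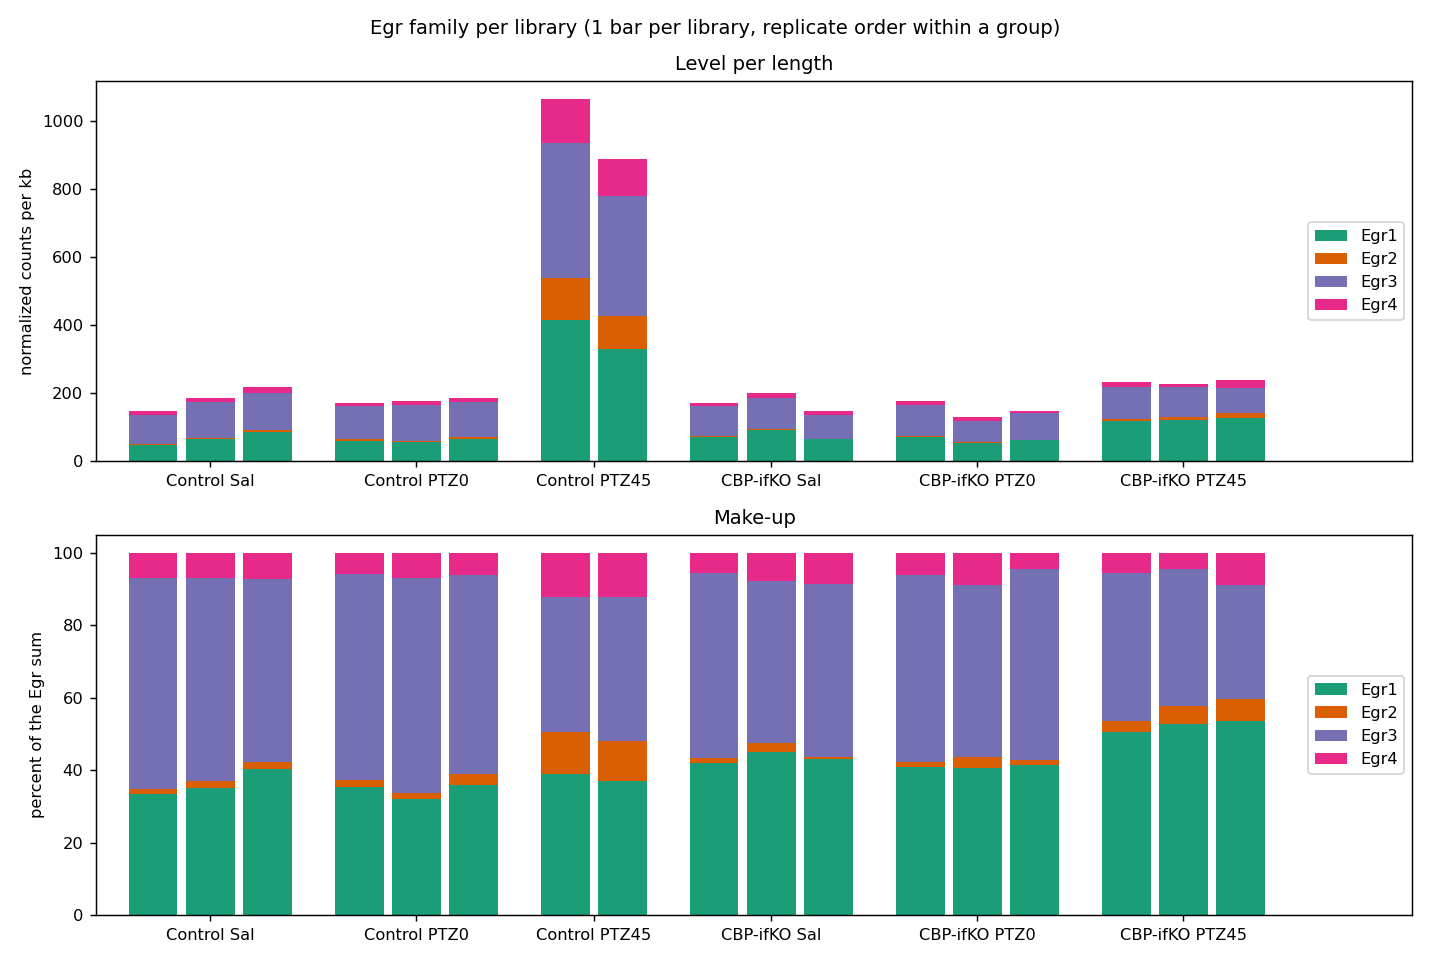
Egr family level in normalized counts per kb of exon (top) and each gene's percent of the Egr sum (bottom); each bar is 1 library, in replicate order within its group. The Control PTZ45 bars reach 1064 and 888.7 against 129.8 to 216.7 in all unstimulated libraries, and Egr1 fills more than 50% of each CBP-ifKO PTZ45 bar.

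Corepressor transcripts were compared with Egr transcripts in the same library. The sum of Nab1 and Nab2 per kb was 199.6, 193.7 and 215.4 in Control Sal, PTZ0 and PTZ45 and 177.7, 172.4 and 181.1 in the same CBP-ifKO groups. Divided by the Egr sum, it was 1.122 ± 0.260 (SD, n = 3) in Control Sal and 1.09 in Control PTZ0 (0.983 to 1.18), and it was 0.189 and 0.259 in the 2 Control PTZ45 libraries. The ratio was 1.04 (0.926 to 1.26) in CBP-ifKO Sal, 1.16 (0.930 to 1.47) in CBP-ifKO PTZ0 and 0.778 (0.746 to 0.829) in CBP-ifKO PTZ45. Control PTZ45 libraries were thus the only ones with far fewer Nab than Egr transcripts per length, and CBP-ifKO PTZ45 libraries lay between them and the unstimulated range. The quantity is a ratio of transcripts, and proteins were not measured.

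**Figure D4:**
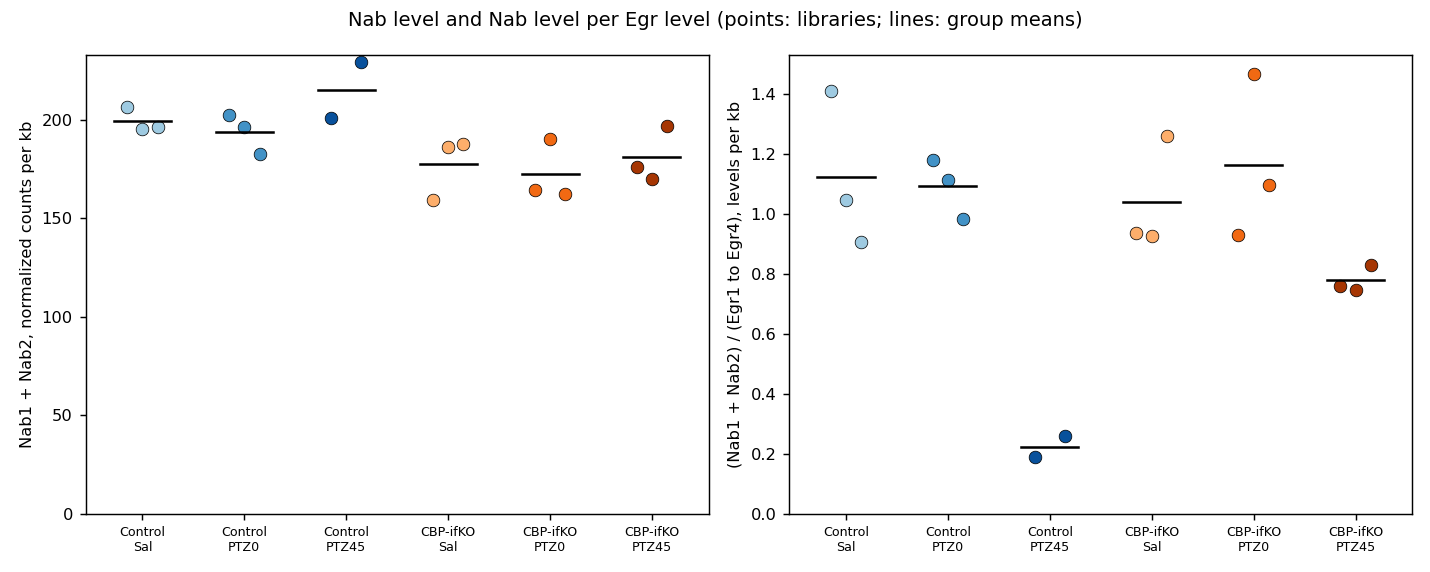
Summed Nab1 and Nab2 level in normalized counts per kb (left) and the same divided by the summed Egr level (right); points are libraries and lines group means, both axes starting at 0. The ratio is 0.189 and 0.259 in Control PTZ45, 0.746 to 0.829 in CBP-ifKO PTZ45 and 0.907 to 1.47 in all unstimulated libraries, while the Nab sum itself varies little.

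The factors that act on Egr genes were examined as a list of 14: SRF, its ternary complex partners Elk1, Elk3 and Elk4, a pair of myocardin-related coactivators, Creb1 and kinases of the ERK pathway. None of the 14 was called by DESeq2 after PTZ in either genotype or against either reference. All genes tested were called higher there at shares of 0.0607% to 1.18%, so that none of 14 is near those shares. In these comparisons 1 or 2 genes each had an unadjusted p under 0.05. By edgeR, Elk4 was called in Control mice over PTZ0 and Mrtfa in CBP-ifKO mice over Sal. The list's median log2 fold change after PTZ was between -0.06 and -0.03. Between genotypes Map2k1, the kinase that activates ERK, was lower in Sal (-0.34, adjusted p = 0.0352) and PTZ0 mice (-0.32, adjusted p = 9.97e-06), and Mapk3, which encodes ERK1, was lower in PTZ0 mice (-0.28, adjusted p = 0.011), 1 and 2 of 14 in the Sal and PTZ0 comparisons, where 2.04% of all genes tested were called in either direction and 5.25% lower. Over Sal and PTZ0 these 2 were lower (-0.33 and -0.27), beside 9.04% of all genes tested, and Elk3 was higher (0.32, adjusted p = 0.0305). There 7 of the 14 had an unadjusted p under 0.05, and edgeR also called Srf and Elk1, which DESeq2 gave as -0.21 (adjusted p = 0.162) and 0.19 (adjusted p = 0.0689); in PTZ0 mice edgeR also called Elk1 (0.22, adjusted p = 0.178 by DESeq2). In PTZ45 mice Srf was lower in CBP-ifKO mice at -0.54 (SE 0.17, adjusted p = 0.0455), 1 of 14 where 2.82% of all genes tested were lower. The median of the list in the genotype comparisons ran from -0.11 to 0.02, and the median of all genes tested was within 0.01 of 0 in every comparison.

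Among 11 genes described as direct Egr targets, 1 followed the family. In Control mice 10 were tested against either reference, where 0.939% (Sal) and 1.18% (PTZ0) of all genes tested were called higher. In CBP-ifKO mice 11 were tested, where the shares were 0.0860% and 0.0607%. Arc, whose product controls AMPA receptor traffic at synapses and whose enhancer Egr proteins bind, rose after PTZ by 2.45 against Sal (adjusted p = 2.04e-28) and 2.77 against PTZ0 (adjusted p = 1.85e-240) in Control mice. In CBP-ifKO mice it rose by 0.57 against Sal (adjusted p = 0.0445), and its 0.78 against PTZ0 was not called by DESeq2 (adjusted p = 0.671) but was by edgeR. The interaction for Arc was -1.88 (adjusted p = 3.19e-06) over Sal and -1.99 (adjusted p = 4.70e-09) over PTZ0. None of the other targets tested was called by DESeq2 at 45 min after PTZ, where up to 3 of them a comparison had an unadjusted p under 0.05 and edgeR called Ache and Syn1 in Control mice, and the list's median log2 fold change was between -0.05 and -0.02.

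Between genotypes, 2 of 9 Egr targets tested were called lower in Sal, 4 of 9 in PTZ0 and 3 of 9 in PTZ45 mice, where 2.04% of all genes tested were called in either direction in Sal and 5.25% and 2.82% were lower in PTZ0 and PTZ45. Of these targets 1 was called in all 3 treatments. Htr2a, a serotonin receptor gene that Egr3 is known to regulate, was lower in CBP-ifKO mice in Sal (-0.79, adjusted p = 1.95e-05), PTZ0 (-0.72, adjusted p = 1.40e-06) and PTZ45 (-0.81, adjusted p = 4.34e-05) mice, and its interactions of -0.03 and -0.10 were not called. Over Sal and PTZ0, 5 of 10 targets tested were lower, where 9.04% of all genes tested were: Htr2a (-0.75), Gabra4, a GABA-A receptor subunit gene (-0.26), Syn2, a synaptic vesicle protein gene (-0.26), Dlg4, which encodes PSD-95 (-0.24), and Cdk5r1, the activator of the kinase Cdk5 (-0.15). The list's median was -0.24 there, beside a median within 0.01 of 0 for all genes tested.

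Of the 13 NuRD subunit genes none was called by DESeq2 after PTZ in either genotype, nor between genotypes in Sal, PTZ0 or PTZ45 mice taken alone. After PTZ, 0.0607% to 1.18% of all genes tested were called higher. Between genotypes 2.04% were called in either direction in Sal, and 5.25% and 2.82% were lower in PTZ0 and PTZ45 mice. None of 13 is near these shares. From 0 to 4 of the 13 a comparison had an unadjusted p under 0.05, and edgeR called Gatad2a alone, between genotypes in Sal mice. Over Sal and PTZ0 Gatad2a was higher (0.30, adjusted p = 0.00083), and the remodeller gene Chd3 (-0.11, adjusted p = 0.0482) and the histone-binding subunit gene Rbbp7 (-0.22, adjusted p = 8.57e-05) were lower, 2 of 13 beside 9.04% of all genes tested. The list's median was 0.03.

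For each member the 3 genes with the most similar values were sought in the 13041 genes whose mean reached 50 normalized counts. The measure was the root mean square difference of log2(normalized count + 1) over the 17 libraries, each gene first centred on its Control Sal mean. Because the 2 Control PTZ45 libraries carry most of the variation of Egr genes, they weigh heavily in it. Since every group enters the measure, a likeness between a member and its closest genes in any group follows from the choice.

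Egr1 was closest to Gm47423 (0.189), an antisense transcript at chr13:58824218-58826994 within the span of Ntrk2, the gene of the BDNF receptor, followed by Ovca2 (0.323) and C630044B11Rik (0.347), which also lies inside Ntrk2, at chr13:58812153-58814363. Centred values were 2.49 for Egr1, 2.58 for Gm47423 and 3.04 for C630044B11Rik in Control PTZ45, and 0.89, 0.80 and 1.03 in CBP-ifKO PTZ45. Ovca2 overlaps exons of Dph1, so that its reads may be shared.

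Egr2 was closest to Gm47075 (0.563) and Gm47088 (0.622), transcripts of unsettled status at chr13:93312041-93314055 and chr13:93317427-93319065 inside Homer1, a synaptic scaffold gene, and to Fosb (0.749), an AP-1 gene. Its distances were the longest of the 6 members. Egr2 rests on 4 to 20 reads in each unstimulated library, and the part of counting noise in these distances was not tested. In CBP-ifKO PTZ45 Gm47075 and Gm47088 stood at 1.74 and 1.81 and Fosb at 1.0, beside 1.60 for Egr2.

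Egr3 was closest to Nr4a2 (0.194), an orphan nuclear receptor gene, to Rgs2 (0.227), a regulator of G protein signalling, and to Pcdh8 (0.267), a protocadherin gene. Their centred values in CBP-ifKO PTZ45 were -0.07, 0.05 and -0.32, beside -0.23 for Egr3, after 1.93, 1.82, 1.51 and 1.91 in Control PTZ45. Egr4 was closest to Nr4a1 (0.318), Arc (0.325) and Gm38257 (0.407), the last inside Arl5b. Of the 6 genes nearest to Egr3 and Egr4, 5 were protein-coding, and of the 6 nearest to Egr1 and Egr2, 4 lay inside the spans of Ntrk2 and Homer1.

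Nab1 and Nab2 had close neighbours of another kind, since they varied little. Nab1 was nearest to Gpc5 (0.0679), Rims1 (0.0711) and Sept8 (0.0714), and Nab2 to Ube2m (0.107), Manbal (0.116) and Mlf2 (0.117).

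**Figure D5:**
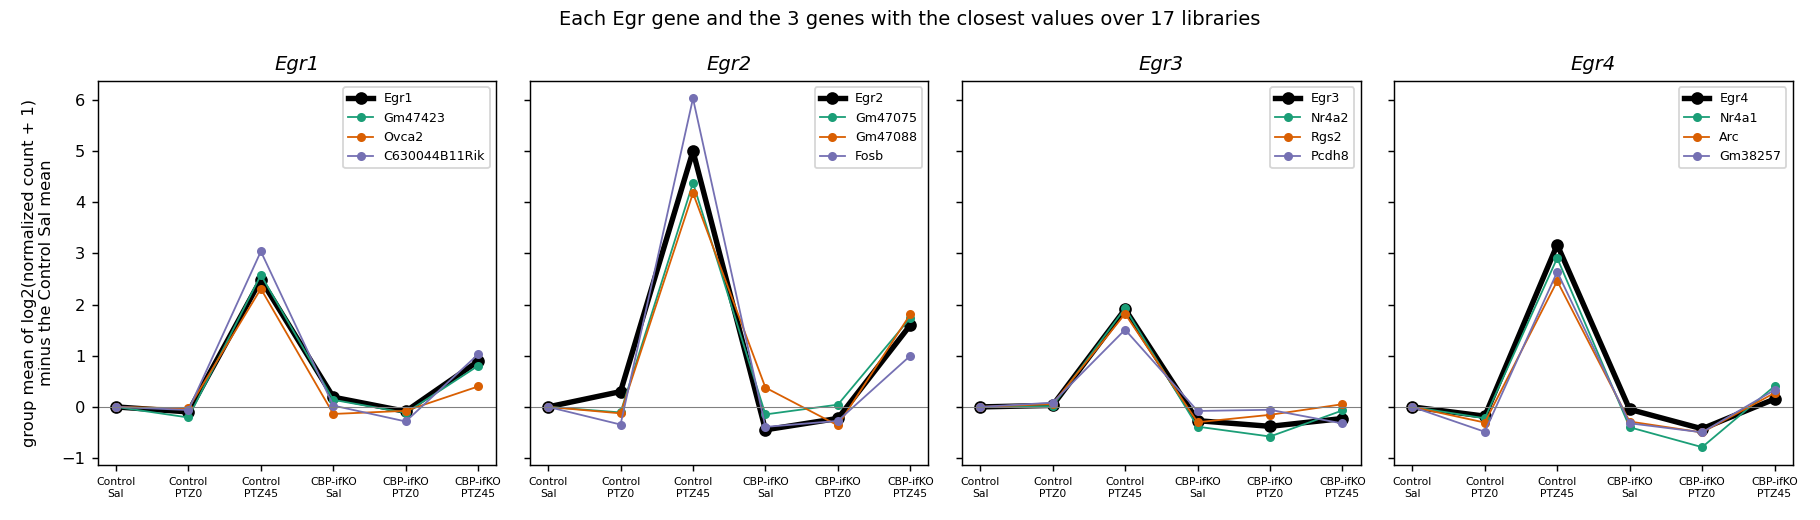
Group means of log2(normalized count + 1), each minus the Control Sal mean, for each Egr gene (black) and its 3 closest genes (coloured) over the 6 groups. All curves peak in Control PTZ45, between 1.51 and 6.03. In CBP-ifKO PTZ45 those beside Egr1 and Egr2 stand at 0.40 to 1.81 and those beside Egr3 and Egr4 at -0.32 to 0.40. The closest genes were chosen on all groups shown, so their likeness to the Egr gene of the panel follows from the choice.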

How the data were processed

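The authors trimmed reads with Trim Galore 0.6.4, checked them with FastQC 0.11.8, aligned 50-base single-end reads to mm10 (GRCm38) with STAR 2.6.1, kept those of mapping quality over 10 and counted them over Ensembl exons with Rsubread; the deposited values are raw counts per gene, and the authors tested them with DESeq2 1.30.1. Of the 18 count columns, 1 matched no sample and was not used; its name begins like those of the Control PTZ45 columns, a group that has 2 libraries here. Of the 55471 genes, 39260 had at least 1 count over the 17 libraries. Genes with a count in the libraries compared entered each fit of DESeq2 1.42.0 in R 4.3.3, with only the groups compared in the fit. The Wald test was two-sided, with Benjamini-Hochberg adjustment over the genes left after DESeq2's independent filtering, called all genes tested here. Alternatives used edgeR 4.0.16 and are given in the closing section. Normalized counts were divided by size factors over the 17 libraries, and per-kb levels by union exon length. The text names the 6 members, the genotype check genes, up to 5 called genes a list and comparison, and the 3 closest genes of each member. Members and lists were chosen with earlier results of these data known. The fits were tested on simulated data. Annotation came from GENCODE M21, which held 99.6% of gene IDs.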

Additional observations from a re-analysis of the deposited data

Results flagged for a closer look

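In 8 tests the effect of PTZ differed between genotypes for an Egr gene, by the interaction term of DESeq2 on the log2 scale. Over Sal the interaction was -1.77 for Egr1 (adjusted p = 6.16e-05), -2.92 for Egr2 (adjusted p = 0.0396), -1.85 for Egr3 (adjusted p = 2.00e-20) and -2.91 for Egr4 (adjusted p = 8.52e-09), each meaning a smaller rise in CBP-ifKO mice. Over PTZ0 it was -1.62 for Egr1 (adjusted p = 1.26e-17), -2.79 for Egr2 (adjusted p = 5.37e-06), -1.73 for Egr3 (adjusted p = 9.11e-20) and -2.77 for Egr4 (adjusted p = 1.11e-07). The tests over Sal and over PTZ0 share the PTZ45 libraries, and those of Control come from 2 mice in a lane that held no other Control library, so that lane and group cannot be told apart there. With 3 libraries at most in a group, no library was tested for standing apart from its group.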

How the results depend on the processing

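The rises of all 4 Egr genes in Control mice, their lower level in CBP-ifKO mice after PTZ and their interactions over PTZ0 kept direction and call under each alternative that gave an adjusted p, those without a Control PTZ45 library included, where the lone remaining library was assumed to vary like the other group. Of 1086 values of members under alternatives, 52 had another sign than the reported one, and in none of those 52 was either value called. The replicate numbers in the labels belong to separate mice and did not pair the samples: deviations from group means correlated at -0.523 to 0.532 (median -0.0606) over 40 same-numbered pairs and at -0.513 to 0.725 (median 0.0308) over 80 others, and 7 of 17 libraries correlated best with their own number. Control PTZ45 replicate 2 carries another number in its column name than in its label. The label number was used for it here and in the fits with a replicate block.

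With a replicate block, 1 member was called higher in CBP-ifKO mice over PTZ0 in place of 2, 0 were lower between genotypes in PTZ0 mice in place of 1, 1 was lower over Sal and PTZ0 in place of 2, and 3 were lower by interaction over Sal in place of 4, the Egr2 interaction being -3.10 (adjusted p = 0.298; with a GC correction as well, -3.09 and 0.34, again 3 members); Nab2 was -0.099 for PTZ45 against PTZ0 in Control mice and -0.044 between genotypes in PTZ45 mice. With the block and a GC correction, 1 member was higher in CBP-ifKO mice over Sal and 1 over PTZ0, 0 were lower between genotypes in PTZ0 mice and 1 over Sal and PTZ0; Nab2 in Control mice over Sal was 0.033, Nab1 in CBP-ifKO mice over Sal -0.011 and Egr4 between genotypes in Sal mice 0.069. With the GC correction alone these 3 were 0.030, -0.010 and 0.044, Nab1 for PTZ0 against Sal in Control mice was -0.0017 and Nab2 between genotypes in PTZ0 mice 0.0025. One fit of all 17 libraries called 1 member lower over Sal and PTZ0. Nab1 in CBP-ifKO mice over Sal was -0.0078 by edgeR and -0.0067 with TMM size factors, and Nab2 for PTZ45 against PTZ0 in Control mice was -0.0048, -0.0061 and, with a filter of 10 counts in 2 libraries, -0.00098.

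Leaving out the 5 libraries rich in choroid plexus RNA, an alternative chosen after seeing the data, gave 0 members higher in CBP-ifKO mice over Sal and 1 over PTZ0, 0 lower between genotypes in PTZ0 mice, 0 lower over Sal and PTZ0, and 2 lower by interaction over Sal in place of 4. It also gave -0.030 for Nab2 in CBP-ifKO mice over Sal, -0.036 for Nab1 in Control PTZ0 over Sal, 0.11 for Egr4 between genotypes in Sal mice, -0.030 for Egr1 and 0.044 for Egr4 in PTZ0 mice and 0.077 for Egr4 over Sal and PTZ0. Fewer libraries entered these fits; other causes were not tested.

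With 1 library left out at a time, members called ranged from 1 to 2 in CBP-ifKO mice over Sal and over PTZ0, from 0 to 1 between genotypes in PTZ0 mice and from 1 to 2 over Sal and PTZ0. Log2 fold changes in CBP-ifKO mice over Sal ran from -0.049 to 0.14 for Egr3, -0.066 to 0.49 for Egr4, -0.043 to 0.057 for Nab1 and -0.065 to 0.25 for Nab2, and over PTZ0 from -0.020 to 0.11 for Nab1. For Nab2 they ran from -0.098 to 0.068 in Control PTZ45 over PTZ0 and from -0.044 to 0.13 between genotypes in PTZ45 mice. For PTZ0 against Sal they ran from -0.33 to 0.11 for Egr1, -0.082 to 0.10 for Egr3 and -0.037 to 0.073 for Nab1 in Control mice, and from -0.34 to 0.71 for Egr2, -0.23 to 0.042 for Egr3, -0.098 to 0.030 for Nab1 and -0.21 to 0.093 for Nab2 in CBP-ifKO mice. Between genotypes they ran from -0.046 to 0.38 for Egr1, -0.98 to 0.059 for Egr2 and -0.24 to 0.095 for Egr4 in Sal mice, from -0.10 to 0.11 for Egr1 in PTZ0 mice and from -0.016 to 0.18 for Egr1 over Sal and PTZ0.

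With the length of the longest transcript in place of the union of exons, the Egr sum was 190.5 per kb in Control PTZ0 and 244.3 in CBP-ifKO PTZ45. Egr1 then held 32.1% in Control PTZ0, 35.7% in Control PTZ45, 41.0% in CBP-ifKO Sal, 38.5% in CBP-ifKO PTZ0 and 49.8% in CBP-ifKO PTZ45. Egr2 held 12.3% in Control PTZ45, Egr3 59.5% in Control PTZ0 and 40.4% in Control PTZ45, and Egr4 6.61% in Control Sal and 11.5% in Control PTZ45.

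Over all genes, edgeR called 297 genes higher in Control mice over Sal where DESeq2 called 163, and 464 over PTZ0 against 213; in CBP-ifKO mice it called 29 against 17 and 35 against 16. For PTZ0 against Sal it called 85 against 3 and 21 against 4, between genotypes 828 against 306 in Sal mice and 774 lower against 430 in PTZ45 mice, and by interaction 104 lower against 69 and 133 against 82. The lowest counts over all alternatives were 65, 83, 9, 7, 0, 0, 80, 100, 36 and 49 in that order; between genotypes in PTZ0 mice and over Sal and PTZ0 they were 140 against 670 and 653 against 1573. Depth limits Egr2 most, with 4 to 20 reads in each unstimulated library.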

Other observations

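Zfp365, a zinc finger gene on the chromosome of Egr2 but not adjacent to it, was lower in CBP-ifKO mice in each treatment, at -0.42 (adjusted p = 2.83e-04) in Sal, -0.38 (adjusted p = 6.90e-07) in PTZ0 and -0.39 (adjusted p = 0.00103) in PTZ45 mice by DESeq2. It was not called after PTZ in either genotype by DESeq2 or edgeR, and its unadjusted p was above 0.05 there, whereas Egr2 rose. The other nearby genes examined, Stat6 beside Nab2 and Reep2 and Kdm3b near Egr1, were called in no comparison.

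In the Sal groups and Control PTZ45, but not in the PTZ0 groups or CBP-ifKO PTZ45, some libraries stood in the same place for the whole Egr family. Among the 3 Control Sal libraries, replicate 3 was the highest and replicate 1 the lowest for all 4 Egr genes, and among the 3 CBP-ifKO Sal libraries replicate 2, the shallowest of the series, was the highest for all 4. The Control Sal library rich in choroid plexus RNA was the middle one for all 4. In both PTZ0 groups replicate 2 was the lowest for some Egr genes (Egr1 with Egr2 in Control, Egr1 with Egr3 in CBP-ifKO mice) and the highest for the other two. In Control PTZ45, replicate 1 was the higher of the 2 libraries for all 4 Egr genes, and in CBP-ifKO PTZ45 replicate 3 was the highest for Egr1, Egr2 and Egr4 and the lowest for Egr3.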
